A study of Homo sapiens with 8 samples.

Results

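Processed pseudogenes are copies of messenger RNAs that were reverse transcribed and inserted back into the genome. They usually lack introns and a promoter of their own, so they are often silent or are read as a piece of the transcript they landed in. Abundant housekeeping messages, above all those of ribosomal proteins, have left many such copies. Short reads from a young copy can be hard to tell from reads of the parent gene, while an old copy has gathered enough mutations to be recognised. The pseudogenes described here are the rows of the deposited count table that GENCODE release 29 types as processed_pseudogene, selected on their raw counts: at least 50 reads in total over the 8 libraries, with no regard to group. They numbered 2093 of the 10181 processed pseudogenes in the table (20.6%), which has 67060 rows in all. A further 4421 processed pseudogenes had 0 reads.

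The study measured RNA by sequencing in SH-SY5Y, an established human neuroblastoma line whose labelled cell type is neuronal progenitor. An adenovirus (0.5 ul) was added at 80% confluence, with RNA taken 48 h later. In 4 libraries the virus carried BioID-Flag-ERRg, a biotin ligase for proximity labelling fused to the Flag-tagged orphan nuclear receptor ERRg, and in 4 control libraries it carried BioID-GFP-NLS, the same ligase fused to a nuclear-localised green fluorescent protein. Every library thus came from virus-treated cells of 1 line that express a BioID fusion, with no untreated cells, and the groups are called ERRg and GFP.

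Nothing in the labels states that the 4 libraries of a group are separate cultures, so the spread behind each p-value may be technical. Reads assigned to genes numbered 27.7 to 35.5 M in GFP and 21.02 to 23.0 M in ERRg libraries. ESRRG, the gene of the delivered receptor, was at 35.1 ± 2.34 CPM in GFP and 801 ± 70.5 CPM in ERRg (SD, n = 4 each). CPM are reads per M of the library's gene reads after scaling by the trimmed mean of M values (TMM). Of the markers of sympathetic neuroblastoma, HAND2 and GATA3 lay between 118 and 275 CPM in every library, while TH and CHGA were listed at 0, which was not read as absence of their RNA. HAND2 went from 247 to 129 CPM, GATA2 from 154 to 64.6 CPM and DBH from 14.3 to 2.998 CPM. Of the fibroblast markers, COL1A1 was at 119 ± 9.35 CPM in GFP and 44.7 ± 7.84 CPM in ERRg, COL1A2 at 5.88 and 1.11 CPM, DCN at 6.02 and 2.37 CPM, and LUM at 17.0 and 21.2 CPM. The glial genes GFAP and SOX10 lay between 0.556 and 2.98 CPM. The part of these levels in the results below was not tested. The leukocyte gene PTPRC and the basal keratin KRT5 were at most at 0.204 CPM. Outside annotated exons fell 20.9% ± 3.58 of a GFP library's reads and 46.7% ± 1.31 of an ERRg library's. Reads aligned to more than one place made up 11.9% ± 1.32 and 6.41% ± 0.449. In bulk RNA, fewer cells with a transcript and less of it per cell cannot be told apart.

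The pseudogenes were split by parent and by place. By symbol, 254 derived from ribosomal protein genes (names beginning RPL or RPS) and 1839 from other parents. Of all 2093, 501 lay within an intron of a coding gene on the same strand as that host gene, 999 lay within an intron on the opposite strand and 593 lay outside introns of coding genes. Intronic ones were thus 71.7% of this set, against 30.2% of all annotated processed pseudogenes. Below, outside introns means outside introns of coding genes. Of those 593, 58 lay in an intron of a noncoding gene on the same strand. A coding exon was overlapped on the same strand by 24 and on the opposite strand by 38, and 70 lay within 10 kb after a coding gene. Most of the 2093 had a single exon (1800), and their median length was 570 bases. They were thinly covered, with a median of 143 reads over the 8 libraries, 697 below 100 reads and 44 above 1000. RPS2P5, a copy of the small-subunit ribosomal protein gene RPS2, held 7.41% of the 595438 reads of the whole set. At the threshold, 17 pseudogenes had exactly 50 reads, of which 5 to 38 came from the GFP libraries, and 24 just below it had 49 reads, of which 12 to 34 came from GFP. Because a pseudogene could enter through the reads of 1 group alone, the counts below describe this set and not the silent copies.

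A parent was also sought by sequence, by aligning each pseudogene to the coding transcripts of GENCODE 29. It was found for 1999, with a median identity of 88.7% and a range of 64.7% to 100%, and it was the gene in the symbol for 1046 of the 1072 that had both. By sequence 540 rather than 254 matched a ribosomal protein gene best, because 287 of these carry a clone name or another symbol. Stretches of 100 bases, taken from the coding part of the parent, show for 4 pseudogenes how far the copies have drifted. Bases that differ between the copy and its parent are in capitals. The sequences are those of GENCODE 29 on GRCh38, written 5′ to 3′ along the pseudogene. RPS2P5 (chr12:118246084-118246183, plus strand) and RPLP0P6 (chr2:38481851-38481950, plus strand), a copy of the large-subunit stalk protein gene RPLP0, are shown because both were lower in ERRg together with their parents. Each differs from its parent at 2 of the 100 bases.
RPS2P5: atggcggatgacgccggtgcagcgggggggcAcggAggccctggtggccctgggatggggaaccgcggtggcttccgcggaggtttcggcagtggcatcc
RPS2: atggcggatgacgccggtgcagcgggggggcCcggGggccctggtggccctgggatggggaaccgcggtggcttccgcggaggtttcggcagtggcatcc
RPLP0P6: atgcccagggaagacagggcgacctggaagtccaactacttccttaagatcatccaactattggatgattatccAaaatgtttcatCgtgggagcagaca
RPLP0: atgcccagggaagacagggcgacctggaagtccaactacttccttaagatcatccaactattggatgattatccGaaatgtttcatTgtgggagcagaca
RPS27AP12 (chr7:157192368-157192467, plus strand) copies the ubiquitin fusion gene RPS27A and differs at 6 bases. RPL35AP31 (chr13:71846146-71846245, plus strand) copies the large-subunit gene RPL35A and differs at 14 bases. Both are shown because they were higher in ERRg while their parents were lower.
RPS27AP12: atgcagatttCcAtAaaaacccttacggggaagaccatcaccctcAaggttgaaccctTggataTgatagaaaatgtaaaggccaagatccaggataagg
RPS27A: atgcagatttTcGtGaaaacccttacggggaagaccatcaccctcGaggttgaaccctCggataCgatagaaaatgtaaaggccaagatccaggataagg
RPL35AP31: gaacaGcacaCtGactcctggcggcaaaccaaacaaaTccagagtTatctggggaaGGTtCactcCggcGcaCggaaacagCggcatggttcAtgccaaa
RPL35A: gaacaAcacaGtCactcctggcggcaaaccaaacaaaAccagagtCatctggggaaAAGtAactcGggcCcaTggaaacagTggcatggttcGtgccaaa

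Most processed pseudogenes of this set were higher in ERRg. By edgeR's quasi-likelihood test at an adjusted p under 0.05, 1264 of 2093 were higher (60.4%) and 116 were lower (5.54%), where the background over all 24393 genes tested was 36.2% higher and 33.7% lower, 69.9% in either direction. Their median log2 fold change, ERRg over GFP, was 0.97, against 0.11 for all genes tested and -0.31 for the 13912 coding genes tested. All 4 ERRg libraries lay above all 4 GFP libraries for 1004 pseudogenes and below for 103, where the background was 30.9% above and 32.3% below. The set took 0.237%, 0.189%, 0.204% and 0.227% of gene reads in GFP replicates 1 to 4 and 0.380%, 0.372%, 0.380% and 0.373% in ERRg. The groups did not overlap, and GFP replicate 2 was the lowest library. The means were 0.214% ± 0.0220 and 0.376% ± 0.00423 (SD, n = 4 each).

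The scale of the fold changes moved with the normalisation. With upper-quartile factors the median of all genes rose to 0.43, and 1537 pseudogenes were higher and 85 lower, beside 11814 and 6167 of all genes. With unscaled library totals it was 0.53, and 1613 were higher and 74 lower, beside 12641 and 5497 of all genes. With offsets for GC content and length, 696 were higher and 188 lower (median 0.44), beside 6362 higher and 7771 lower of 23564 genes. Of the pseudogenes higher with TMM alone, 657 were higher with the offsets too and 3 were lower.

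Intronic copies were mostly higher, and copies outside introns were mixed. Of the same-strand intronic copies 342 of 501 were higher and 16 lower (median 1.11), and of the opposite-strand ones 670 of 999 were higher and 26 lower (median 1.01). Outside introns 252 of 593 were higher and 74 lower (median 0.63). Copies of ribosomal protein genes were higher in 134 and lower in 36 of 254 (median 0.84), and those of other parents in 1130 and 80 of 1839 (median 0.98). The lowest of the 6 combinations was that of ribosomal copies outside introns, with 26 higher and 27 lower of 70 (median -0.06). That median turned to 0.26 (upper-quartile factors) and 0.36 (library totals), and the counts to 30 higher and 23 lower, and 32 higher and 21 lower. With the GC and length offsets it was -0.39, with 14 higher and 30 lower. Ribosomal copies inside introns had 108 higher and 9 lower of 184 (median 0.92), which the offsets turned to 50 and 14 (median 0.37). The coding ribosomal protein genes themselves were lower in 76 of 79, with 0 higher (median -1.28). These differences between classes were not tested.

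**Figure D1:**
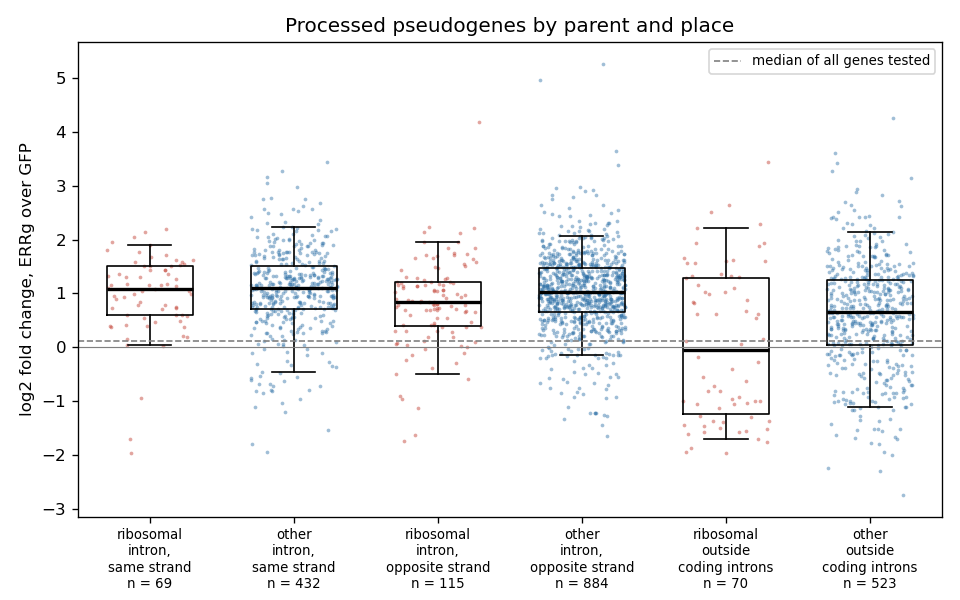
Log2 fold change (ERRg over GFP, edgeR) of each processed pseudogene, by parent (ribosomal protein in red, other in blue) and place. Points are pseudogenes, boxes the quartiles with the median, whiskers the 5th to 95th percentile, and the dashed line the median of all genes tested (0.11). Intronic classes sit near 1, and ribosomal copies outside introns spread from -1.96 to 3.45 around a median of -0.06.

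How closely a pseudogene resembles a coding transcript went with its direction. This split and those by host and parent call below were made after the values were seen, and differences between their classes were not tested. Of 157 pseudogenes with an identity of 98% and over, 28 were higher and 69 lower (median -0.52). Between 95% and 98% it was 111 higher and 27 lower of 232 (median 0.73), between 90% and 95% 317 and 5 of 488 (median 1.02), between 80% and 90% 483 and 6 of 732 (median 1.05), and under 80% 269 and 7 of 390 (median 1.07). Of the 116 that were lower, 96 had an identity of 95% and over, which is 82.8%, while 18.6% of the whole set has it. The medians of -0.52 (98% and over) and 1.04 (under 95%) became -0.20 and 1.37 (upper-quartile factors), -0.10 and 1.46 (library totals), and -0.87 and 0.51 with the GC and length offsets.

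Among ribosomal copies the split was wider. Of 35 with an identity of 98% and over, 30 were lower and 1 higher (median -1.37), and of 188 under 95%, 120 were higher and 1 lower (median 1.01). With the GC and length offsets the first class had 31 lower and 1 higher (median -1.47), and the second 51 higher and 7 lower (median 0.43). Of the 70 ribosomal copies outside introns, 23 had an identity of 98% and over (32.9%), against 5 of 69 on the host's strand and 7 of 115 on the opposite strand. Under 98%, ribosomal copies outside introns had 26 higher and 6 lower of 47 (median 0.99). The longest identical stretch shared with the parent gave the same order. With 200 identical bases and over, 17 of 109 were higher and 48 lower (median -0.55), and under 100 bases 1094 of 1679 were higher and 26 lower (median 1.03).

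GC content moved with identity and with the fold change. The median GC content was 43.8% under 80% identity and 48.1% at 98% and over. Within the range of 40% to 45% GC the medians of the fold change were 1.17 for 560 pseudogenes under 95% identity and 0.08 for 46 of 98% and over. Within 50% to 55% GC they were 0.90 for 254 and -1.18 for 35. In the remaining ranges they were 1.18 for 268 and 0.37 for 8 under 40% GC, 1.01 for 400 and -0.52 for 45 between 45% and 50%, and 0.51 for 128 and -1.13 for 23 at 55% and over. Across pseudogenes the log2 fold change and GC content had a Pearson r of -0.31 (n = 2093), and across 13905 coding genes -0.64. Genes are not independent replicates, so these carry no p-value.

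**Figure D2:**
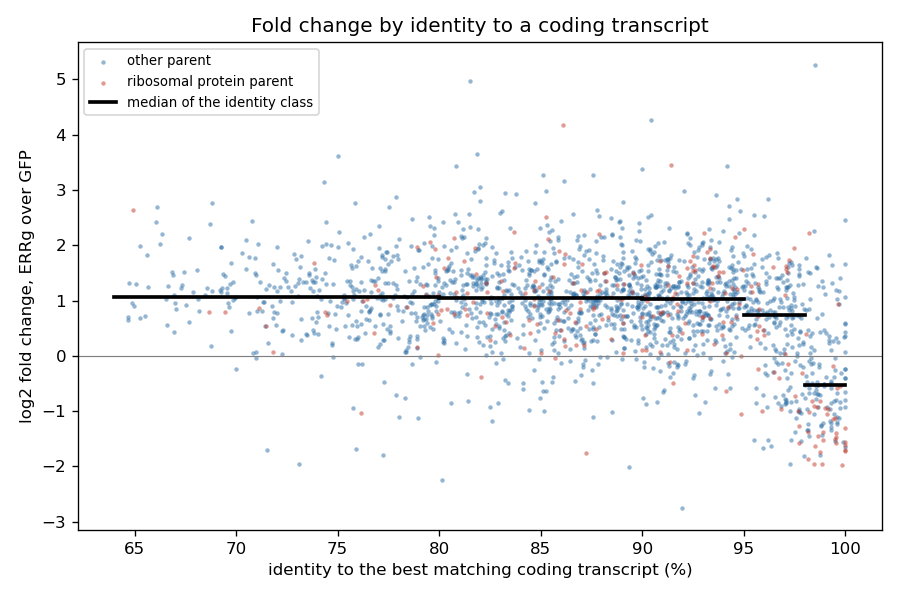
Log2 fold change (ERRg over GFP, edgeR) against the identity of each pseudogene to its best matching coding transcript, for ribosomal protein copies (red) and others (blue). Black bars are the medians of the 5 identity classes, which run from 1.07 under 80% to 0.73 between 95% and 98% and -0.52 at 98% and over.

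The reads per library divided by identity too, though a few pseudogenes hold many of them. Pseudogenes of 98% identity and over took 0.0991%, 0.0976%, 0.0929% and 0.0921% of gene reads in GFP replicates 1 to 4 and 0.0695%, 0.0691%, 0.0747% and 0.0714% in ERRg. The remaining ones took 0.138%, 0.0913%, 0.111% and 0.135% in GFP and 0.310%, 0.303%, 0.305% and 0.301% in ERRg. The first share was lower and the second higher in every ERRg library than in any GFP library. The GFP libraries spread far more in the second (0.119% ± 0.0221) than the ERRg libraries (0.305% ± 0.00385). RPS2P5 alone took 0.0273% ± 0.00235 of gene reads in GFP and 0.0110% ± 0.00168 in ERRg, all of it in the first share. These shares are not TMM-scaled. With library totals, 43 of the 157 pseudogenes of 98% identity and over were higher and 49 lower. The fall of the first share thus does not describe most of them. Ribosomal copies took 0.0658% ± 0.00311 of gene reads in GFP and 0.0550% ± 0.00272 in ERRg. RPS2P5 held 33.8% of the reads of ribosomal copies, and its own fall was larger than that of all of them together. The lower share thus does not describe the ribosomal copies without RPS2P5. Set against the reads of the coding ribosomal protein genes, ribosomal copies had 10.3 ± 0.435 reads per 1000 in GFP and 16.3 ± 0.671 in ERRg.

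**Figure D3:**
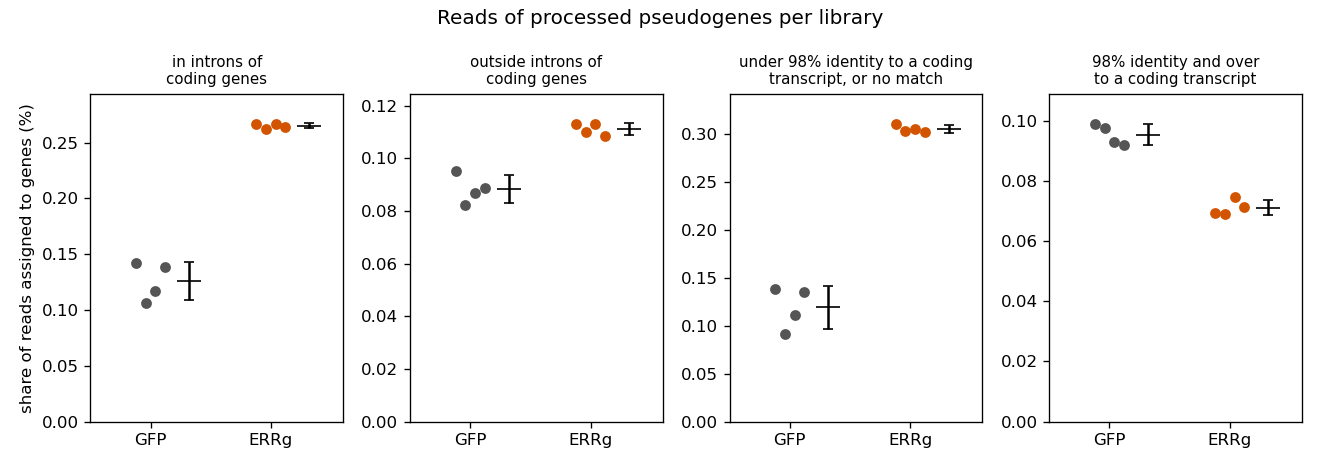
Share of gene reads (%) held by processed pseudogenes in each library, by place and by identity to a coding transcript. Points are libraries in the order of replicates 1 to 4, and bars are means ± SD (n = 4). Shares are higher in all ERRg libraries in the first 3 panels and lower in the last (0.0955% against 0.0712%). In the last panel RPS2P5 alone holds 0.0273% in GFP and 0.0110% in ERRg.

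The shares of same-strand intronic pseudogenes ranked like the share of reads outside annotated exons. Same-strand intronic pseudogenes took 0.0382%, 0.0256%, 0.0305% and 0.0362% of gene reads in GFP replicates 1 to 4, where reads outside exons held 24.2%, 16.2%, 20.1% and 23.2% of the library. In ERRg the values were 0.0904%, 0.0862%, 0.0827% and 0.0834%, and 48.3%, 47.3%, 45.5% and 45.8%. The 2 measures ranked the libraries alike within each group. Opposite-strand intronic pseudogenes without RPS2P5 did not rank so in ERRg, where they took 0.167%, 0.166%, 0.171% and 0.1695% of gene reads. Counted per M reads outside annotated exons, same-strand intronic pseudogenes had 858 ± 30.7 reads in GFP and 759 ± 4.98 in ERRg. On that scale every ERRg library (754 to 765) lay below every GFP library (821 to 885), the opposite of the order by share of gene reads. Opposite-strand intronic pseudogenes without RPS2P5 had 1731 ± 25.5 and 1495 ± 77.0 reads on the same scale. The part that reads outside exons have in the fold changes was not tested further.

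Strand could not be used to assign intronic reads. The labels name a directional library preparation, and the strand setting of the counting is not given in the sources used here. In hosts with over 10000 reads, 79.2% of 308 same-strand and 82.9% of 659 opposite-strand processed pseudogenes reached 50 reads, with median totals of 160 and 151. In hosts with 500 to 2000 reads the shares were 32.3% of 133 and 25.6% of 207. Counts inside introns were thus about as high on the strand opposite the host as on its own. Of genes typed antisense whose exons lie to 99% or more under exons of the opposite strand, 97.7% of 341 had 0 reads and 3 reached 50 reads, against 18.3% and 1197 of the 2437 with no base under such exons. A count without strand sets aside reads that lie in exons of 2 genes, so low counts there do not show that strand was used. Reads of a host's intron and reads of an antisense pseudogene in it cannot be told apart in these counts, and the strand classes describe position alone. Outside coding introns, 8.34% of 7110 processed pseudogenes reached 50 reads.

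**Figure D4:**
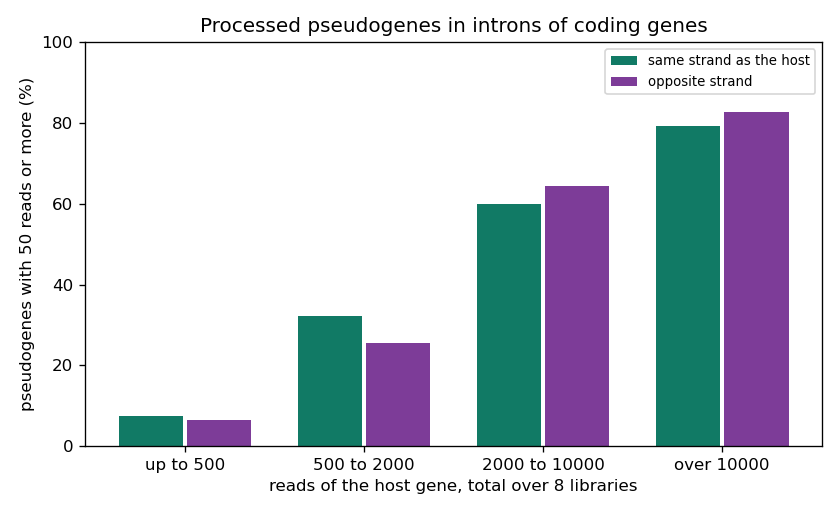
Share (%) of all annotated processed pseudogenes within introns of coding genes that reached 50 reads, by the total reads of the host gene over 8 libraries and by strand. Both strands go from about 7% in hosts with up to 500 reads (7.39% and 6.57%) to 79.2% and 82.9% in hosts with over 10000.

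The share of intronic pseudogenes called higher went with the host's own call. The 1500 intronic pseudogenes lay in 1228 host genes, and DYNC2H1, which encodes a dynein heavy chain of cilia, held the most (7). With the host called higher, 194 of 240 same-strand copies were higher and 3 lower (median 1.25), and with the host called lower, 64 of 129 were higher and 3 lower (median 0.78). For opposite-strand copies it was 358 higher and 9 lower of 481 (median 1.16), and 171 and 7 of 293 (median 0.84). The fold changes of pseudogene and host had a Pearson r of 0.37 on the same strand (n = 491) and 0.34 on the opposite strand (n = 978), both from the same libraries. The pseudogene's log2 fold change exceeded its host's in 88.8% and 88.3% of cases, by a median of 0.94 and 0.92. The hosts themselves were higher in 559 and lower in 370 of 1199 (median 0.18). They were higher in 772 and lower in 226 with upper-quartile factors and in 815 and 172 with library totals, and with the GC and length offsets in 384 and 453 (median -0.02).

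Pseudogenes and their parents had like fold changes at high identity and mostly unlike ones below it. Of the 516 parents named in symbols and tested, 311 were lower and 123 higher (median -0.48). It was 245 lower and 188 higher with upper-quartile factors (median -0.15), 206 and 201 with library totals (median -0.06), and 358 and 74 with the GC and length offsets. With the parent lower, 342 of 545 pseudogenes under 95% identity were higher and 5 lower, while of 76 with 98% and over, 3 were higher and 50 lower. With the parent higher, 121 of 148 under 95% were higher, as were 10 of 17 at 98% and over, and 0 were lower in either class. In all, 381 pseudogenes were higher with a lower parent, and 0 were lower with a higher parent. In all places together, the fold changes of pseudogene and parent had a Pearson r of 0.59 (Spearman rho 0.75, n = 104) at 98% and over. Under 95% it was 0.21 (rho 0.22, n = 798). Outside introns alone it was 0.80 (rho 0.87, n = 56) at 98% and over, and 0.27 (rho 0.26, n = 184) under 95%. Pseudogenes of 1 parent share that parent's value and all values share the same libraries, so these are descriptions.

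**Figure D5:**
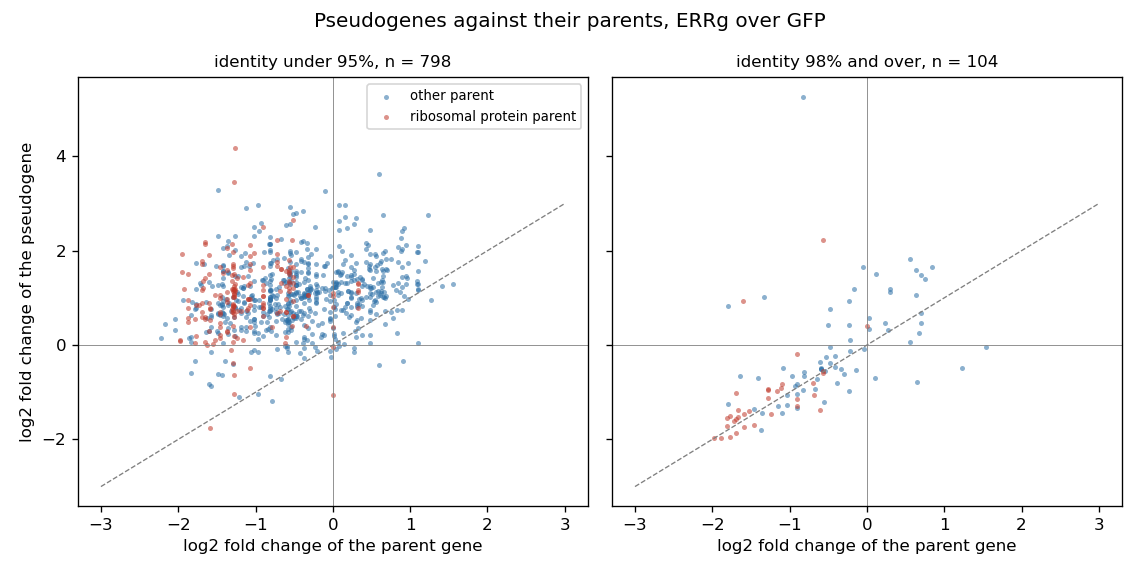
Log2 fold change (ERRg over GFP, edgeR) of each pseudogene against that of its parent gene, for pseudogenes under 95% identity (left, n = 798) and of 98% and over (right, n = 104). The dashed line marks equal fold changes. On the left most points lie above 0, also where the parent's value is below 0, and on the right most lie along the line.

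The 5 named pseudogenes with the most reads were close copies of their parents and were called lower in ERRg, H3F3AP4 not in every setting. RPS2P5 (ENSG00000240342.3, chr12:118246084-118246962, in an intron of TAOK3 on the opposite strand) was at 296, 379, 289 and 309 CPM in GFP replicates 1 to 4 and at 83.0, 83.7, 115 and 98.8 CPM in ERRg. Its groups did not overlap, with a log2 change of -1.74 (SE 0.11, edgeR adjusted p = 3.17e-11), and -1.14 with the GC and length offsets. The parent RPS2, a protein of the small ribosomal subunit, had -1.59, and the host TAOK3, a kinase of stress signalling, did not pass the test (-0.17, edgeR adjusted p = 0.138). Without RPS2P5, opposite-strand intronic copies took 0.0660% ± 0.0128 of gene reads in GFP and 0.168% ± 0.00221 in ERRg, against 0.0934% ± 0.0116 and 0.179% ± 0.00386 with it.

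2 more RPS2 copies, both outside introns of coding genes, fell by like amounts. The first, RPS2P46, lies in an intron of a noncoding gene on its own strand. RPS2P46 (chr17:19445970-19446852, identity 98.6%) was at 62.1, 74.7, 56.3 and 64.7 CPM in GFP and at 22.6, 19.4, 28.003 and 24.0 CPM in ERRg (log2 fold change -1.46, SE 0.11, and -0.87 with the GC and length offsets). RPS2P32 (chr7:23490473-23491364) is an older copy with an identity of 87.2% and no identical stretch over 41 bases, and yet went from 13.5 ± 1.84 to 3.98 ± 0.610 CPM (-1.76, SE 0.14, edgeR adjusted p = 2.54e-10). With the offsets it had -1.14. RPS2P32 was the single ribosomal copy by symbol of 80% to 90% identity called lower, where 59 of 91 were higher. Copies ribosomal by sequence alone are not among these 91, and their lowest log2 fold change at any identity was -2.25.

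PPIAP22 and H3F3AP4 led the other parents outside introns of coding genes. H3F3AP4 lies in an intron of a noncoding gene on its own strand. PPIAP22 (chr21:18857779-18858276, identity 99.6%) copies the cyclophilin gene PPIA, whose protein helps others fold. It was at 163, 171, 157 and 161 CPM in GFP and at 105, 96.4, 105 and 104 CPM in ERRg. The fall of 1.59-fold (log2 -0.67, SE 0.08, edgeR adjusted p = 2.71e-07) stood beside -0.82 for PPIA. H3F3AP4 (chr2:174719908-174720318), whose sequence matches the histone H3.3 gene H3F3A at 100%, was at 103, 93.2, 105 and 86.6 CPM in GFP and at 80.2, 87.1, 78.8 and 82.95 CPM in ERRg. Its groups overlapped. Its log2 fold change of -0.24 (edgeR adjusted p = 0.0229) did not pass with the replicate number as a block (adjusted p = 0.0770), nor without GFP replicate 1 (-0.20, adjusted p = 0.101) or GFP replicate 3 (-0.20, adjusted p = 0.0656), and was positive with upper-quartile factors (0.09).

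Among the 6 largest falls of well-covered pseudogenes were 4 ribosomal copies by symbol and 1 by sequence. RPLP0P6 was at 8.18, 9.77, 7.24 and 7.74 CPM in GFP and at 2.29, 1.496, 2.35 and 2.34 CPM in ERRg (log2 fold change -1.96, SE 0.16), next to -1.89 for RPLP0. AL450405.1, a clone-named copy of RPL29 by sequence (identity 97.3%), fell by 1.95 on the log2 scale, RPL13P12 by 1.95 and RPSAP15 by 1.87. RPS2P32, described above, was also among them, and in each the groups did not overlap, as the rule for naming required.

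RPL41P1 and RPL39P3 are copies of the very small large-subunit proteins RPL41 and RPL39, and match them at 100%. RPL41P1 (chr20:21755270-21755350, 81 bases) was at 90.1, 92.5, 82.6 and 83.4 CPM in GFP and at 23.95, 28.2, 36.4 and 30.3 CPM in ERRg (log2 fold change -1.55, SE 0.11). RPL39P3 (chr6:73373108-73373263, in an intron of OOEP on the same strand) was at 6.46, 7.65, 7.46 and 6.17 CPM in GFP and at 1.88, 2.09, 2.19 and 2.34 CPM in ERRg (-1.70, SE 0.15, and -2.67 with the GC and length offsets). RPL41 and RPL39 had -1.80 and -1.46. Reads of copies this alike and reads of the parent are uncertain, since the assignment of each read rests on few or no differing bases.

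The 6 largest rises among well-covered pseudogenes belonged to copies of under 95% identity, 5 of them inside introns. RPL35AP31 (chr13:71845981-71846317, identity 86.1%, in an intron of DACH1 on the opposite strand) had 0, 4, 2 and 5 reads in GFP and 42, 59, 60 and 33 in ERRg. That is 0.105 ± 0.0887 CPM against 1.92 ± 0.495 CPM, a log2 fold change of 4.18 (SE 0.42, edgeR adjusted p = 9.51e-09) that rests on few GFP reads. Its parent RPL35A fell by 1.27 on the log2 scale, and its host DACH1, a transcriptional regulator of development, rose by 2.59. HNRNPA1P29 (chr13:93394977-93395855, identity 82.0%, in an intron of the glypican gene GPC6 on the opposite strand) was at 1.79, 1.29, 0.832 and 1.61 CPM in GFP and at 9.56, 11.2, 9.21 and 8.31 CPM in ERRg. The change was 2.79 on the log2 scale (SE 0.18, edgeR adjusted p = 3.38e-11), next to -0.48 for HNRNPA1, the gene of an RNA-binding protein of pre-mRNA, and 0.62 for GPC6.

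HSPD1P11 (chr5:95768999-95770700, identity 80.8%, in an intron of RHOBTB3 on the same strand) copies HSPD1, the mitochondrial chaperonin. It was at 2.55, 1.42, 2.28 and 2.48 CPM in GFP and at 13.4, 14.2, 10.4 and 13.7 CPM in ERRg (log2 fold change 2.57, SE 0.16), next to 0.28 for HSPD1 and 0.85 for RHOBTB3. KNOP1P4, a copy of the nucleolar protein gene KNOP1 in an intron of the potassium channel gene KCNQ5, went from 0.300 ± 0.116 to 2.06 ± 0.243 CPM (2.78, SE 0.29). AC010886.1 (chr2:217693895-217696763) lay outside introns of coding genes and went from 0.575 ± 0.137 to 5.09 ± 0.581 CPM (3.14, SE 0.21), 8.83-fold. Its best match, the proton pump gene ATP12A, covered 53.6% of it at 74.4% identity. The sixth of these rises was AL021068.2, a 100-base copy of MT-ATP8 (2.63, SE 0.36, and 1.57 with the GC and length offsets).

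The best-covered ribosomal copies on the host's strand went opposite ways. RPS27AP12, in an intron of the ubiquitin ligase gene UBE3C, was at 2.69, 1.98, 2.71 and 2.52 CPM in GFP and at 7.93, 5.80, 5.93 and 5.08 CPM in ERRg. The groups did not overlap (log2 fold change 1.32, SE 0.17, edgeR adjusted p = 3.68e-07), while RPS27A fell by 1.07 on the log2 scale and UBE3C rose by 0.22. With the GC and length offsets RPS27AP12 had 0.55 (adjusted p = 0.00364). RPL39P3, described above, fell.

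Of the copies of other parents with the most reads inside introns, 2 for each strand, HSPD1P11 is described above. DDX50P1, a copy of the RNA helicase gene DDX50 in an intron of the zinc transporter gene SLC30A6, was at 6.74, 3.09, 4.56 and 6.95 CPM in GFP and at 13.7, 12.9, 13.1 and 12.9 CPM in ERRg (log2 fold change 1.31, SE 0.17). MTND4P12, a nuclear copy of the mitochondrial gene MT-ND4 in PCBD2, was at 7.57, 8.86, 11.5 and 15.9 CPM in GFP and at 27.3, 24.6, 19.8 and 25.9 CPM in ERRg (1.16, SE 0.16), next to 0.94 for MT-ND4. MTND4P12 also overlaps an annotated exon on its own strand. MORF4L1P1, a copy of the chromatin gene MORF4L1 with an identity of 99.3%, was at 12.8 ± 1.45 and 13.7 ± 0.879 CPM and did not pass (0.10, edgeR adjusted p = 0.436). With the GC and length offsets MORF4L1P1 had -0.46 (adjusted p = 1.94e-04), and with upper-quartile factors 0.42 (adjusted p = 0.00174).

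The parents with the most copies in the set each had copies that rose while the parent fell. PPIA and HNRNPA1 had 21 copies each. Of those of PPIA, 13 were higher and 2 lower (median 0.96), and of those of HNRNPA1, 14 were higher and 0 lower (median 1.27). RPL23A had 18 copies, 8 higher and 0 lower (median 0.84), and RPL21 had 15, 6 higher and 2 lower (median 0.84). The shares higher were 61.9% (PPIA), 66.7% (HNRNPA1), 44.4% (RPL23A) and 40% (RPL21). Beside them, 36.2% of all genes tested and 60.4% of the whole set were higher, so RPL23A and RPL21 were near the background. RPL23AP32, the RPL23A copy with the most reads, was at 1.58, 0.938, 1.41 and 1.74 CPM in GFP and at 4.495, 4.08, 4.38 and 4.48 CPM in ERRg (log2 fold change 1.63, SE 0.19), against -1.30 for RPL23A and -0.25 for its host SPTBN1. RPL21P28, the corresponding copy of RPL21, has 99.4% identity and was at 5.73 ± 0.912 CPM in GFP and 2.59 ± 0.251 CPM in ERRg (-1.14, SE 0.16, and -1.98 with the GC and length offsets), against -0.91 for RPL21. Its host DTL was lower too (-0.66).

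The copies were also counted by the function of the parent, inside and outside introns, beside a background of 36.2% higher and 33.7% lower over all genes tested. Differences between these groups, many of them small, were not tested. Copies of translation factor genes were higher in 13 and lower in 4 of 22 inside introns (median 0.75), and higher in 2 and lower in 6 of 14 outside (median -0.16). Copies of small-subunit ribosomal genes were higher in 38 and lower in 3 of 62 inside (median 0.98), and higher in 10 and lower in 11 of 24 outside (median -0.98). Those of the large subunit were higher in 70 and lower in 6 of 122 inside (median 0.87), and higher in 16 and lower in 16 of 46 outside (median 0.13). Chaperone and cyclophilin copies were higher in 30 and lower in 1 of 39 inside (median 1.11), and higher in 7 and lower in 1 of 13 outside (median 1.01). Copies of nuclear genes for mitochondrial proteins were higher in 42 and lower in 1 of 64 inside (median 1.02), and higher in 1 and lower in 2 of 9 outside (median 0.04). For RNA-binding and splicing proteins it was 28 higher and 3 lower of 44 inside (median 1.13), and 7 and 2 of 16 outside (median 0.36). For chromatin proteins (HMG and histone) it was 33 and 3 of 46 inside (median 1.02), and 4 and 2 of 10 outside (median 0.0070). For cytoskeleton genes it was 15 and 1 of 30 inside (median 0.80), and 1 and 1 of 9 outside (median 0.55). Glycolysis copies had 7 and 0 of 11 inside (median 1.26), and 1 and 2 of 4 outside (median -0.65). Those of ubiquitin and proteasome genes had 14 and 1 of 18 inside (median 1.05), and the higher median outside, with 4 and 0 of 6 (1.83). Of the ferritin copies, 6 of 9 inside were higher and 0 lower (median 0.79), and the 1 outside did not pass.

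Copies of the mitochondrial genome itself were higher wherever they lay. Of 38 typed as processed pseudogenes, 37 were higher and 0 lower (median 1.61), 23 of 23 inside introns and 14 of 15 outside. With upper-quartile factors, and again using library totals, 37 were higher and 0 lower, and with the GC and length offsets 21 were higher and 0 lower (median 0.78). MT-ND4, the parent of MTND4P12, rose as well, from 5749 CPM in GFP to 11064 CPM in ERRg (log2 fold change 0.94). Values of the other mitochondrial parents are not given here. The part of reads of the mitochondrial genome itself in these counts was not tested, nor was the difference between these copies and the rest.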

How the data were processed

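RNA sequencing of 8 SH-SY5Y libraries was used, 4 per group. The authors deposited raw counts per gene in 1 table, not normalised. The submitters' processing notes list STAR 2.7.8a, HTSeq 0.11.3, Trim Galore 0.6.6, CASAVA, DESeq2 and the build GRCh38. In the sources used here, the strand setting and the handling of near-identical copies are not stated. The 5 summary lines that name no gene entered neither library sizes nor tests. Their shares are in the report, and those for low quality and unaligned reads held 0%. Of 67060 rows, 58488 matched GENCODE 29, which gave types, exons, introns and transcript sequences. The members and lists were chosen with earlier results of these data known.

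Genes with at least 50 reads over the 8 libraries (24393) were tested in edgeR 4.0.16 (R 4.3.3; TMM, quasi-likelihood, two-sided, group as the sole term), with Benjamini-Hochberg adjustment over all of them and calls at an adjusted p under 0.05. Parents by sequence were the best BLAST+ 2.17.0 hit (e-value up to 1e-10) covering at least 50% of the pseudogene, of which 788 matched more than 1 coding gene. Named pseudogenes were the 2 with most reads in each of the 6 parent and place combinations, the 6 largest log2 fold changes in each direction (adjusted p under 0.05, mean log2 CPM of at least 0, no overlap of groups) and the best-covered copy of each of the 4 parents with most copies, some of which are not reported here. On simulated counts for this comparison (24393 genes), 33% of 100 pseudogenes changed by a log2 of 1 and 95% of 100 changed by 2 were recovered. Of unchanged genes, 0.037% were called. The simulation left 24193 genes unchanged, while 69.9% of the genes tested were called in the data. These rates were not computed at such a share of changed genes and do not carry over to the calls here. Within groups, pairs of libraries differed by a chi-square per gene of 2.78 to 35.4, above sampling noise. It was lowest between ERRg replicates 1 and 2 (2.78) and between 3 and 4 (4.70).

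Alternatives were other size factors, DESeq2 1.42.0, limma 3.58.1 voom, other filters, a replicate block, each library left out, GC and length offsets, stricter thresholds, and parents by sequence.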

Additional observations from a re-analysis of the deposited data

Results flagged for a closer look

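In groups of 4 libraries, a single library far from the others was looked for in each named pseudogene and share, by Dixon's ratio against its 95% critical value. Over 70 such groups, chance flags about 1 in 20. It picked out 4 values. MORF4L1P1 was highest in ERRg replicate 4 (15.0 CPM), and PPIAP22 was lowest in ERRg replicate 2 (96.4 CPM). RPLP0P6 was also lowest in ERRg replicate 2 (1.496 CPM). RPL13P12 was highest in GFP replicate 2 (4.38 CPM).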

How the results depend on the processing

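Of the counts by class, 222 values over the alternatives stayed within 1.5 times and 28 moved further, and of the values of named pseudogenes 406 kept direction and call, 3 changed sign, 3 lost the call and 2 gained it. The cause was not tested. With the GC and length offsets, 696 were higher and 188 lower. By class, this gave 64 higher for ribosomal copies, 632 higher and 144 lower for other parents, 207 higher on the host's strand, 343 higher and 59 lower on the opposite strand, and 146 higher outside introns. Tested against a log2 fold change of 1, 329 were higher and 28 lower (ribosomal 31 and 15, other 298 and 13, same strand 106 and 4, opposite strand 159 and 4, outside 64 and 20). With library totals, 74 were lower in all, 45 of other parents, 10 on the same strand and 12 on the opposite strand. On the opposite strand 15 were lower with upper-quartile factors and 17 at an adjusted p under 0.01. With ribosomal parents by sequence, 299 of 540 were higher (55.4%) and 52 lower, against 134 of 254 (52.8%) and 36 by symbol. Leaving out 1 library gave 1081 to 1271 higher and 105 to 118 lower, the fewest higher without GFP replicate 2.

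Changes of sign were seen in H3F3AP4 (0.0897 with upper-quartile factors, 0.19 with library totals) and MORF4L1P1 (-0.46 with the offsets). Of the pseudogenes, 1672 pass filterByExpr. With the replicate number as a block, 1240 were higher and 106 lower, and H3F3AP4 was not called. Same-numbered libraries of the 2 groups did not deviate together (correlations of 0.058, -0.12, -0.070 and -0.041), and not every sample correlated best with its own number, so the numbers were not read as pairs. At the depth of 50 to under 100 reads, 270 of 666 pseudogenes with a parent by sequence were higher, against 501 of the 644 with 200 to under 1000 reads.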

Other observations

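Among other kinds of genes, the 513 typed sense_intronic in GENCODE 29, transcripts that lie within introns of a host on its strand, included 321 that were higher and 21 that were lower (median log2 fold change 0.89). Unprocessed pseudogenes, which arose by gene duplication, had 124 higher and 30 lower of 268 (median 0.61), and transcribed processed pseudogenes had 78 higher and 23 lower of 171 (median 0.52). An A run of 8 or more bases was found in the last 30 bases of the transcript sequence of 11 of the 2093 processed pseudogenes. Whether these runs are remnants of the poly(A) tail was not tested.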
